A study of Mus musculus with 10 samples.

Results

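Matrix metalloproteinases (MMPs), ADAMTS proteases and tissue inhibitors of metalloproteinases (TIMPs) were examined in epithelium peeled from the palatal and the buccal gingiva of mice. The genes were taken by symbol, as every gene with deposited counts named Mmp, Adamts or Timp followed by a number with an optional letter. The rule gave 46 genes of 49164 with counts, namely 23 Mmp, 19 Adamts and 4 Timp genes. There were 5 libraries of palatal gingival epithelium, the gum facing the palate, and 5 of buccal gingival epithelium, the gum facing the cheek. All tissue was loosened with the protease Dispase and the epithelium was lifted off with forceps, so an enzyme that acts on matrix was used on both sides. The labels give neither strain, age nor genotype, and they do not say whether a library came from 1 animal or from a pool. The series' design text mentions germ-free and specific-pathogen-free mice, but neither status is given for these 10 libraries. The comparison bears on the geographic variation within the gingiva that the series title names.

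MMPs and ADAMTS enzymes are zinc proteases that are made as inactive precursors and cut proteins of the extracellular matrix and of the cell surface once their prodomain is removed. MMPs degrade collagens, gelatin, laminins and elastin, whereas ADAMTS enzymes trim proteoglycans, procollagens, microfibrils and von Willebrand factor. TIMPs bind the active site of these enzymes, and Timp2 also serves as the bridge by which the membrane protease Mmp14 activates Mmp2. In the gingiva these proteases are best known for matrix breakdown in periodontitis and for the remodelling of the tissue around the tooth.

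Total counts per library were 25868777 to 35583168 on the palatal side and 29317011 to 37234192 on the buccal side, of which the 46 genes held 5263 to 7925 in palatal and 6568 to 8868 in buccal libraries. Levels are given as CPM, counts relative to the library size after scaling by the trimmed mean of M-values, and 3 counts correspond to 0.0799 to 0.120 CPM in a library. In all 20 same-side pairs the counts differed beyond sampling noise (chi-square over its degrees of freedom, 8.32 to 64.7), so none was treated as a duplicate. Whether the libraries stem from separate mice is not in the labels, and the p-values therefore cover the spread among these libraries, part or all of which may be technical. The labelled tissue was checked against 12 markers of oral keratinocytes, all of which passed the count filter. Among them Krt5 averaged 4302 CPM in palatal and 4500 CPM in buccal libraries, and Cdh1 586 CPM in palatal and 573 CPM in buccal libraries. Other markers differed between the sides: 5 of the 12 were higher in palatal and 3 lower, with Krt10 4.58-fold higher and Krt4 4.19-fold lower (edgeR adjusted p = 2.74e-09 and 7.37e-09). The shares over all genes tested were 18.7% higher and 20.3% lower.

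The families were carried by a few genes. Mmp14, Mmp2, Mmp15 and Mmp28 held 97.1% of all Mmp counts, Adamts1 and Adamts17 held 79.7% of all Adamts counts, and Timp2 and Timp3 held 99.3% of all Timp counts. Per kilobase of exon, the scale on which genes can be compared, Timp2 averaged 12.6 CPM per kilobase in palatal and 11.6 in buccal libraries. Mmp14 averaged 10.6 in palatal and 10.3 in buccal, and Mmp2 averaged 10.2 in palatal and 12.8 in buccal. These 3 genes were the highest on both sides, and in palatal libraries the range of Mmp14 (8.31 to 12.7) overlapped with those of Timp2 (11.1 to 13.5) and Mmp2 (9.68 to 10.7), while Timp2 lay above Mmp2. Mmp15 came next, at 6.26 CPM per kilobase in palatal and 7.39 in buccal libraries. On the palatal side it was followed by Mmp28 (3.26 in palatal and 2.88 in buccal), Timp3 (1.83 in palatal and 0.816 in buccal) and Adamts1 (1.69 in palatal and 2.89 in buccal). In palatal libraries the ranges of Mmp28 (2.87 to 3.73) and Timp3 (0.935 to 3.09) overlapped, as did those of Timp3 and Adamts1 (1.34 to 2.096). In buccal libraries Adamts1 (2.50 to 3.25) overlapped with Mmp28 (2.75 to 3.18) and lay above Timp3 (0.585 to 0.960). Adamts17, Timp1 and Mmp12 were at 0.503, 0.469 and 0.251 CPM per kilobase in palatal and at 0.478, 0.486 and 0.296 in buccal libraries, and the other genes past the count filter were lower on both sides.

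**Figure D1:**
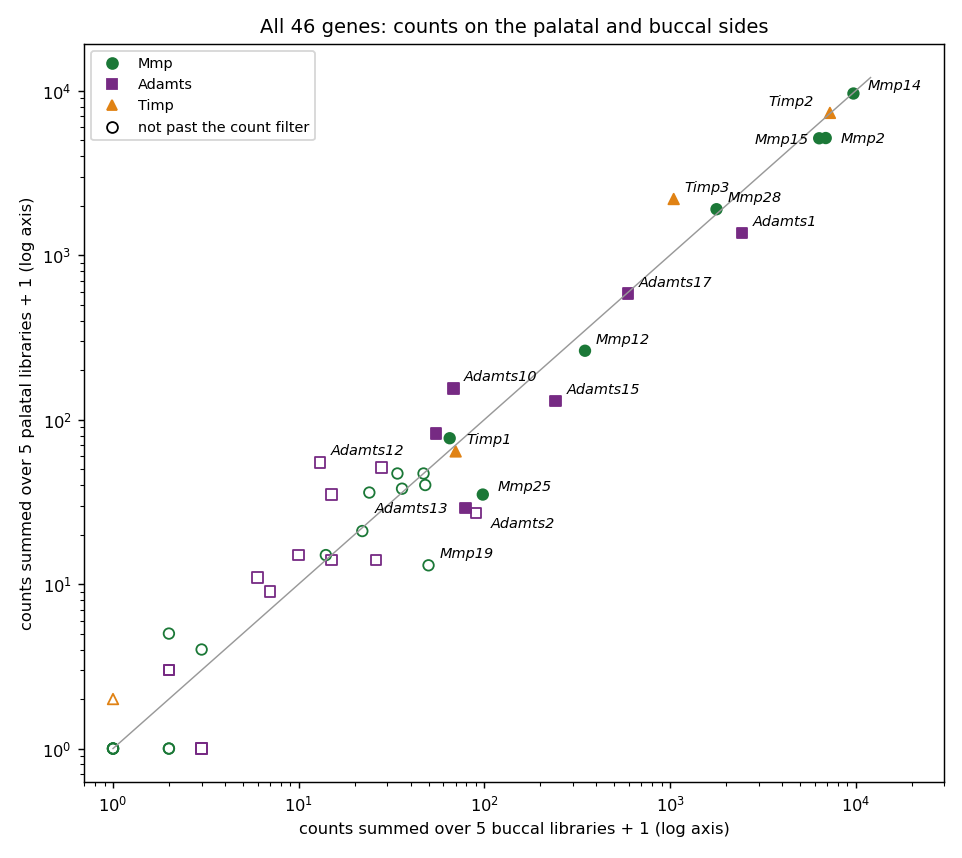
Counts of each of the 46 genes summed over the 5 palatal libraries (vertical axis) and the 5 buccal libraries (horizontal axis), with 1 added, on log axes. Filled symbols passed the count filter, open symbols did not, and the line marks equal counts; most genes lie near the line, Timp3, Adamts10 and Adamts12 lie above it and Adamts1, Adamts13, Adamts2 and Mmp19 below it.

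A row of 10 Mmp genes on mouse chromosome 9 had few reads. In the GENCODE M21 annotation these genes, in the order Mmp13, Mmp12, Mmp1b, Mmp3, Mmp1a, Mmp10, Mmp8, Mmp27, Mmp20 and Mmp7, follow each other with no other coding gene between them. They encode collagenases, stromelysins, macrophage elastase (Mmp12), the enamel protease Mmp20 and matrilysin (Mmp7). Together they held 749 counts over all 10 libraries, 1.04% of the counts of the 46 genes, and Mmp12 alone passed the count filter. Mmp12 accounted for 261 of those counts in palatal and 347 in buccal libraries. Mmp1a, Mmp1b, Mmp7 and Mmp27 had 0 counts in every library, which allows a level of up to 0.120 CPM in the shallowest library, counting error alone considered. Mmp8, the collagenase of neutrophils, had 3 counts over the palatal and 2 over the buccal libraries, Mmp20 had 4 palatal and 1 buccal count, and Mmp3 had 0 palatal and 1 buccal count.

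The start sites of 3 genes of this row and of 3 genes with many reads are shown because they differ in motif letters, a contrast chosen after the values were seen. RefSeq promoter windows on build GRCm38.p6, 250 bases before to 50 bases after a start, matched 32 of the 46 genes with 35 windows. The windows below are written 5′ to 3′ on the gene's strand, with every match to 3 motifs in capitals. The motifs, searched on both strands, were the AP-1 consensus TGANTCA, the TATA box TATAAA and the GC box GGGCGG; a GC box on the other strand reads CCGCCC, and the neighbouring matches in Mmp14 run together. The first 3 windows belong to the row on chromosome 9 (Mmp13 at chr9:7272264-7272563, Mmp3 at chr9:7445572-7445871 and Mmp10 at chr9:7502092-7502391, all on the plus strand). The last 3 belong to Mmp14 (plus strand, chr14:54431348-54431647), Timp3 (plus strand, chr10:86300162-86300461) and Adamts1 (minus strand, chr16:85803064-85803363).
Mmp13: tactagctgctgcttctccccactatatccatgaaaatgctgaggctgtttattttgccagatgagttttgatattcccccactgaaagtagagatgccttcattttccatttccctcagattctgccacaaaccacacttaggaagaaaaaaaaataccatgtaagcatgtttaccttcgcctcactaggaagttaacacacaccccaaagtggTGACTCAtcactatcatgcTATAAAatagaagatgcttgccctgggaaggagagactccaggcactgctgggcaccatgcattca
Mmp3: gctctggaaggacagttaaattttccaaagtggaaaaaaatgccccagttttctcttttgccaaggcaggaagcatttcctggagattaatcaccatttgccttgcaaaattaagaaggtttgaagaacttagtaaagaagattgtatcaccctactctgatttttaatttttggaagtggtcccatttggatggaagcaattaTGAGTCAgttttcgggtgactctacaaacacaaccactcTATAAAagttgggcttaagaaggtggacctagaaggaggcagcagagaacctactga
Mmp10: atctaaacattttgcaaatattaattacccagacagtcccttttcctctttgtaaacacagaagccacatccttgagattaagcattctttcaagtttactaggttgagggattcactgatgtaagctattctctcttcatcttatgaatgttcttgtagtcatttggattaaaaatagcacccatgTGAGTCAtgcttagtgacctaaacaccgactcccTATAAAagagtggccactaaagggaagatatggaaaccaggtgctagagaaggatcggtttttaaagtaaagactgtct
Mmp14: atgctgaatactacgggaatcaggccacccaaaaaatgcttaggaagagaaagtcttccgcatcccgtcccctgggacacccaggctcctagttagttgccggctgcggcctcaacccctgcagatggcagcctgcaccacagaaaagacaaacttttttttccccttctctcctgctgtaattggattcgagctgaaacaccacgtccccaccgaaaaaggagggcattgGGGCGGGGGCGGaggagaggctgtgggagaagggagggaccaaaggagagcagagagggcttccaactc
Timp3: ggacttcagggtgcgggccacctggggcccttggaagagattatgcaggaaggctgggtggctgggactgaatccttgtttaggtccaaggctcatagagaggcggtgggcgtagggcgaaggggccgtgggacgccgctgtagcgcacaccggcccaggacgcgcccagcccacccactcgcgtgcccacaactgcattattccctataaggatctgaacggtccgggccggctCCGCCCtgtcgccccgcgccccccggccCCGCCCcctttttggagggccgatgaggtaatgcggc
Adamts1: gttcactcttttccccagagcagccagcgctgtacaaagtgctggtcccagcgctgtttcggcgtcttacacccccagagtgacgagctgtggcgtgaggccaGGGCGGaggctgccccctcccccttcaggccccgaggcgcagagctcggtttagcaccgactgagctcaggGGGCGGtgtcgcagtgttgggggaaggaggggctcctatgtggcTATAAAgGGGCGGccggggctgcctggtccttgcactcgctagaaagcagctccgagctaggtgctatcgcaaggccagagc

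An AP-1 match stood in 8 of the 12 windows of the row and a TATA match in 9, and no window of the row held a GC box. The AP-1 matches began between 95 and 35 bases before the start. In the other 23 windows there was no AP-1 match, and 18 (78.3%) held a GC box. Among all 32851 windows of the genome 7.81% held the AP-1 letters, 13.6% the TATA letters and 35.7% the GC box. Of the 13 genes past the count filter that had a window, Mmp12 alone had an AP-1 match, and Adamts1 carried both a TATA match and 3 GC boxes. These are matches of letters and say nothing of which factor was bound.

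Of the 46 genes 16 passed the count filter and were compared between the sides. In edgeR's quasi-likelihood test, adjusted by Benjamini-Hochberg over all 14062 genes tested, 3 were higher in palatal epithelium and 4 lower at a false discovery rate of 0.05. Among all genes tested 38.9% were called, 18.7% higher and 20.3% lower, so the share of called genes in these families was near that of the genome. The median log2 fold change, palatal minus buccal, was 0.0015 over the 16 genes and 0.0097 over all genes tested. Between the sides the 5 values did not overlap for 2 genes with palatal above and 4 with palatal below, against 28.3% of all genes tested in either direction. The filter asked for 0.334 CPM in 5 libraries. Adamts13 reached this level in 0 palatal and 5 buccal libraries, Mmp25 in 1 palatal and 4 buccal libraries, Adamts18 in 5 palatal and 3 buccal libraries, and Adamts10 in 5 palatal and 4 buccal libraries, so these 4 depended partly or wholly on the side where they were high. The 10 genes that reached it in all 5 libraries of both sides included 4 of the called ones, Adamts1, Adamts15, Mmp2 and Timp3. Against a fold of 1.5, Adamts10 and Adamts13 alone among the 16 passed.

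**Figure D2:**
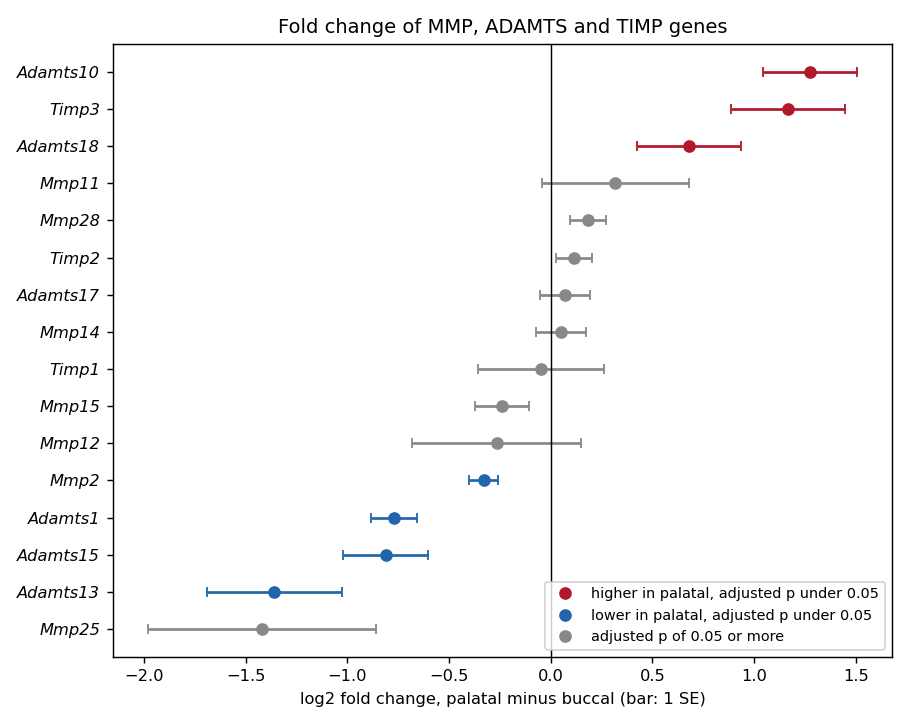
Log2 fold change, palatal minus buccal, of the 16 genes past the count filter with 1 standard error (edgeR, 5 libraries per side); red marks genes called higher in palatal, blue genes called lower and grey genes not called. Adamts10 and Timp3 stand at 1.27 and 1.17 and Adamts13 at -1.358, whereas Mmp14 and Timp2 stand at 0.05 and 0.11.

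The abundant MMPs differed little between the sides, and the gelatinase Mmp2 was the only Mmp gene called. Mmp2 (ENSMUSG00000031740, chromosome 8), which cleaves denatured collagen and basement membrane collagen, had 35.9, 32.6, 34.1, 36.0 and 33.3 CPM in palatal libraries 1 to 5, against 46.4, 37.3, 40.7, 46.6 and 45.0 CPM in buccal libraries 1 to 5. Every palatal library lay below every buccal one, an ordering that held for 14.7% of all genes tested, yet the highest palatal and lowest buccal values were close. Mmp2 was lower in palatal by a small amount, with a log2 fold change of -0.33 ± 0.07 (SE, n = 5 per side; edgeR adjusted p = 0.00206), or 1.26-fold. Its activator Mmp14, the first membrane-type MMP, averaged 63.4 ± 10.8 CPM in palatal and 61.3 ± 9.69 CPM in buccal libraries (SD, n = 5). The fold change of Mmp14 was 0.05 ± 0.12 on the log2 scale (SE; edgeR adjusted p = 0.782), and its sign turned without palatal library 1 (-0.01) and without library 2 of both sides (-0.0065). Timp2, the third partner of this activation complex, averaged 49.1 ± 3.89 CPM in palatal and 45.3 ± 5.84 CPM in buccal libraries (SD; log2 fold change 0.11 ± 0.09 SE, edgeR adjusted p = 0.337).

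The remaining membrane-anchored MMPs were not called. Mmp15, the close relative of Mmp14, averaged 33.8 ± 4.93 CPM in palatal and 39.9 ± 8.23 CPM in buccal libraries (SD, n = 5), a log2 fold change of -0.24 ± 0.13 (SE) that missed the threshold (edgeR adjusted p = 0.178). Buccal library 1 was the highest for both Mmp15 (53.3 CPM) and Mmp14 (77.5 CPM), while palatal library 4 was the lowest for both (27.2 and 49.5 CPM). Mmp25, a lipid-anchored protease known from neutrophils, had 0, 10, 8, 5 and 11 counts in palatal libraries and 22, 41, 13, 8 and 13 counts in buccal libraries. Its sides overlapped, and its log2 fold change of -1.42 ± 0.56 (SE) missed the threshold (edgeR adjusted p = 0.0603). It passed by DESeq2 (adjusted p = 0.0348) and in the edgeR test without buccal library 4 (adjusted p = 0.0392) or buccal library 5 (adjusted p = 0.0456), and without buccal library 2 it stood at -0.93 (adjusted p = 0.16). Buccal library 2, the highest for Mmp25, was among buccal libraries also the highest for S100a8 (52.4 CPM), a neutrophil gene that keratinocytes make too, and for Cxcr2 (12.1 CPM). The other tested neutrophil markers were not highest there: S100a9 was highest in buccal library 5 (28.3 CPM) and Ltf, among buccal libraries, in library 4 (27.5 CPM). Of 4 tested neutrophil markers of 11 listed 1 rose (Ltf) and 1 fell (Cxcr2), beside 18.7% higher and 20.3% lower among all genes tested. The summed level of the 11 was 77.8 to 195 CPM in palatal and 54.3 to 99.5 CPM in buccal libraries. Ltf made up most of the palatal sum, averaging 114 CPM in palatal and 12.0 CPM in buccal libraries. Cxcr2 averaged 3.93 CPM in palatal and 10.1 CPM in buccal libraries. S100a8 (16.3 palatal and 32.0 buccal) and S100a9 (15.8 palatal and 20.1 buccal) were not called. The granule genes Elane, Mpo and Camp had 0, 7 and 1 counts over the palatal and 2, 8 and 1 over the buccal libraries, and the part of neutrophils in the Mmp25 values was not tested. Mmp16, Mmp17, Mmp23 and Mmp24 did not pass the filter, with 14, 39, 20 and 46 counts over the palatal and 13, 47, 21 and 46 over the buccal libraries.

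Among the other secreted MMPs, Mmp28, or epilysin, which keratinocytes are known to make, was the highest per kilobase of exon. It had 13.6, 14.5, 11.6, 11.1 and 12.4 CPM in palatal libraries, against 12.3, 10.6, 10.7, 10.6 and 11.4 CPM in buccal libraries. The sides overlapped, and the log2 fold change was 0.18 ± 0.09 (SE; edgeR adjusted p = 0.12). Mmp12, macrophage elastase, ranged from 0.536 to 3.14 CPM in palatal and from 1.07 to 3.32 CPM in buccal libraries (log2 fold change -0.27 ± 0.42 SE, edgeR adjusted p = 0.657). Over the same libraries 7 of 9 tested macrophage and monocyte markers fell and 1 rose (Itgam), beside 20.3% lower and 18.7% higher among all genes tested. Csf1r fell by 1.31 ± 0.14 (SE) and the complement gene C1qa fell by 1.61 log2 units. The summed level of the 12 listed markers was 25.8 to 31.2 CPM in palatal and 31.5 to 50.5 CPM in buccal libraries, and the part of these cells in the Mmp12 level was not tested. Mmp11, or stromelysin 3, which is mostly known from connective tissue cells, stood at 0.32 ± 0.36 log2 units (SE; edgeR adjusted p = 0.525) and at -0.06 without library 2 of both sides. Mmp9, the gelatinase of leukocytes and of wounded epithelium, did not pass the filter, with 46 counts over the palatal and 33 over the buccal libraries. The filter also left out Mmp13 (37 palatal and 35 buccal counts), Mmp10 (35 palatal and 23 buccal) and Mmp21 (0 palatal and 1 buccal).

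**Figure D3:**
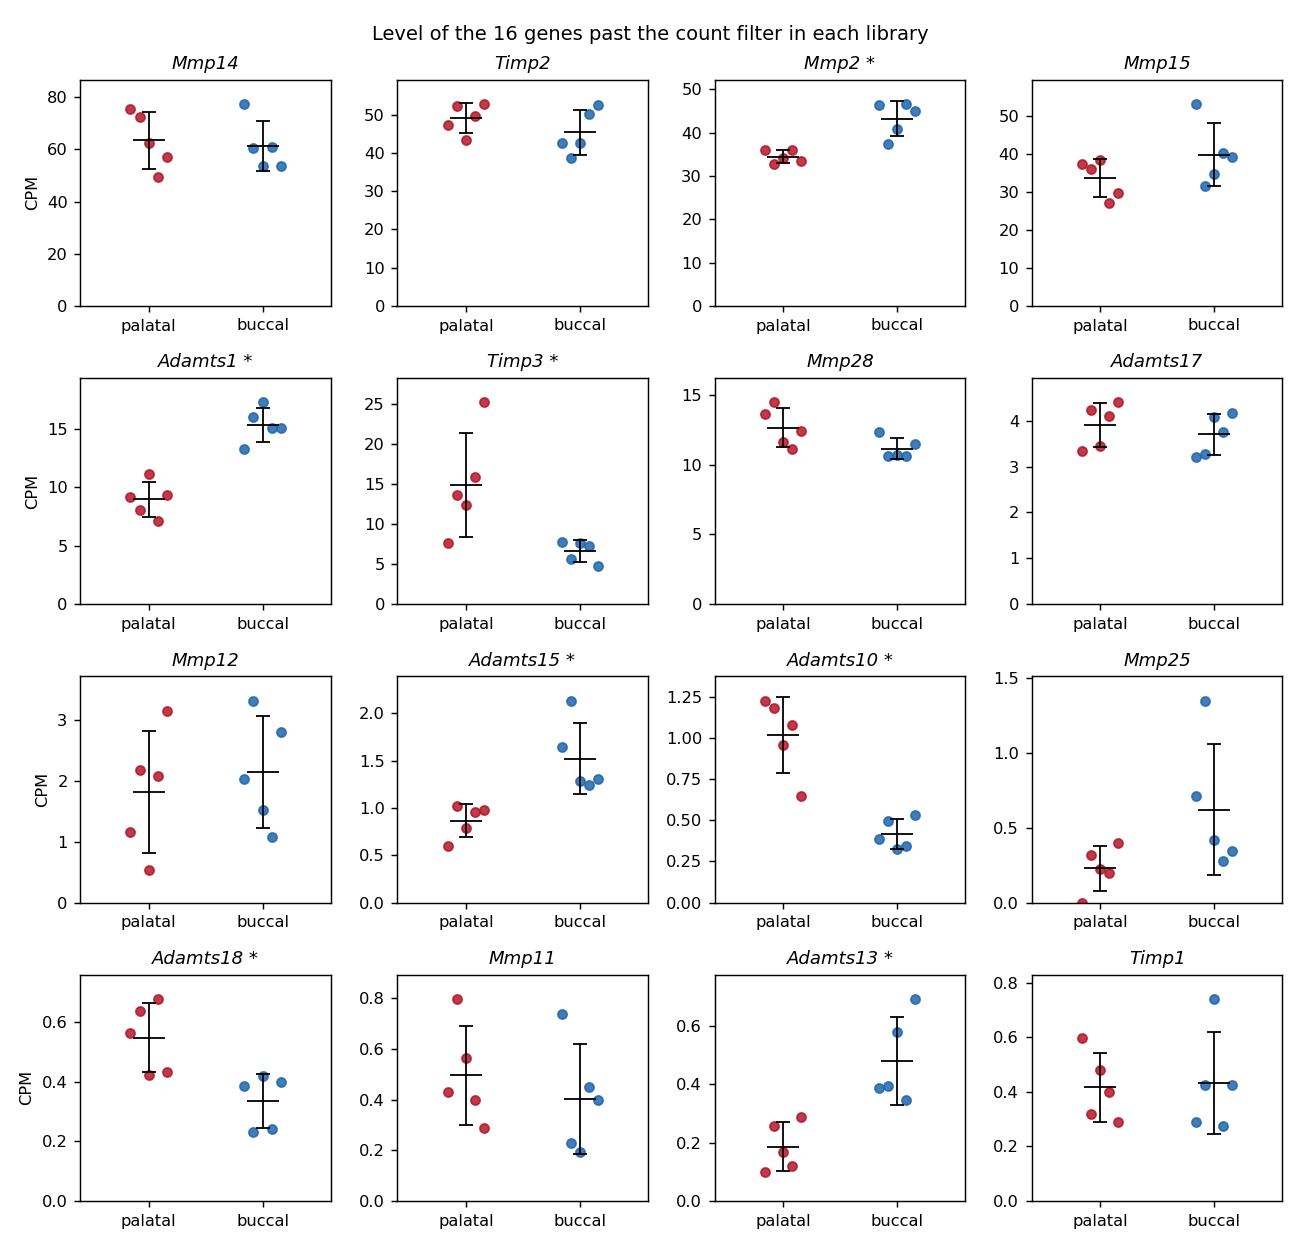
Level in CPM of the 16 genes past the count filter in each palatal (red) and buccal (blue) library, each panel with its own axis from 0; the horizontal mark and bar give the mean and SD of 5 libraries, and an asterisk marks genes called by edgeR. Adamts1, Adamts15, Adamts13 and Mmp2 do not overlap, with palatal below, nor do Adamts10 and Adamts18, with palatal above, and Timp3 spreads from 7.62 to 25.2 CPM in palatal libraries.

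Of 7 ADAMTS genes in the proteoglycan-cleaving group, a group drawn up after the values were seen, 2 were tested and both were lower in palatal epithelium. Among all genes tested 20.3% were lower. Adamts1 (ENSMUSG00000022893, chromosome 16), which cleaves versican and aggrecan, had 9.14, 8.07, 11.1, 7.09 and 9.31 CPM in palatal libraries, against 13.3, 16.03, 17.2, 15.1 and 15.0 CPM in buccal libraries. All palatal libraries lay below all buccal ones, with a log2 fold change of -0.77 ± 0.11 (SE, n = 5 per side; edgeR adjusted p = 6.85e-05), or 1.71-fold. Adamts15 (ENSMUSG00000033453, chromosome 9), a protease of the same versican-cleaving group, had 0.596, 1.02, 0.790, 0.956 and 0.974 CPM in palatal libraries, against 1.64, 2.13, 1.29, 1.24 and 1.30 CPM in buccal libraries. Here too the sides did not overlap, and the fold change was -0.81 ± 0.21 on the log2 scale (SE; edgeR adjusted p = 0.00635). The coding gene next to each is another member of the group, Adamts5 beside Adamts1 and Adamts8 beside Adamts15. Those neighbours had 8 and 0 counts over the palatal and 6 and 2 over the buccal libraries. The rest of the group, Adamts4, Adamts9 and Adamts20, had 13, 34 and 2 counts in palatal and 14, 14 and 1 in buccal libraries and did not pass the filter. The summed level of all 19 Adamts genes, most of it Adamts1, ran from 15.7 to 18.1 CPM in palatal and from 21.0 to 25.4 CPM in buccal libraries.

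Adamts13 (ENSMUSG00000014852, chromosome 2), the protease of von Willebrand factor, had 3, 8, 6, 3 and 8 counts in palatal libraries, against 12, 12, 18, 10 and 26 counts in buccal libraries. The sides did not overlap, and its log2 fold change was -1.358 ± 0.33 (SE; edgeR adjusted p = 0.00462). It passed the filter through the buccal side alone, so a gene at its palatal level on both sides would not have been tested. The substrate gene Vwf, made by endothelial cells, fell by 0.96 log2 units (edgeR adjusted p = 0.00129), at 0.699 CPM in palatal and 1.358 CPM in buccal libraries. Of 5 tested endothelial and mural markers of 11 listed 1 rose (Tie1) and 1 fell (Acta2), beside 18.7% higher and 20.3% lower among all genes tested. The summed level of the 11 was 29.3 to 43.3 CPM in palatal and 27.8 to 38.8 CPM in buccal libraries. Most of that sum was Cspg4, a pericyte gene that other cells also make, at 30.5 CPM in palatal and 22.8 CPM in buccal libraries (edgeR adjusted p = 0.0686). The endothelial gene Pecam1 had 588 counts over the palatal and 645 over the buccal libraries (log2 fold change -0.03, edgeR adjusted p = 0.947). Below the filter, Cdh5, Kdr and Emcn had 29, 11 and 6 counts over the palatal and 49, 54 and 12 over the buccal libraries. Tek and Egfl7 had 16 and 22 palatal and 18 and 31 buccal counts. The part of endothelial cells in the Adamts13 and Vwf values was not tested.

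Other ADAMTS genes were higher on the palatal side. Adamts10 (ENSMUSG00000024299, chromosome 17), which acts in fibrillin microfibrils, had 1.23, 1.18, 0.959, 1.08 and 0.650 CPM in palatal libraries, against 0.386, 0.493, 0.322, 0.346 and 0.532 CPM in buccal libraries. The sides did not overlap, an ordering with palatal above that held for 13.6% of all genes tested. Adamts10 rose by 1.27 ± 0.23 log2 units (SE; edgeR adjusted p = 4.74e-04), or 2.42-fold. Its relative Adamts17, also tied to microfibrils, averaged 3.91 ± 0.482 CPM in palatal and 3.71 ± 0.445 CPM in buccal libraries (SD; log2 fold change 0.07 ± 0.12 SE, edgeR adjusted p = 0.686), with a sign that turned without library 2 of both sides (-0.0035). The microfibril gene Fbn1, a fibrillin, stood at 1.77 CPM in palatal and 0.231 CPM in buccal libraries and rose by 2.91 log2 units (edgeR adjusted p = 2.78e-07). Its buccal values, 0.161 to 0.290 CPM, were all under the filter's 0.334 CPM, so Fbn1 passed the filter through the palatal side alone. Adamts18 had 0.563, 0.638, 0.423, 0.677 and 0.433 CPM in palatal libraries, against 0.386, 0.230, 0.419, 0.242 and 0.399 CPM in buccal libraries. The sides nearly touched, at 0.423 CPM in the lowest palatal and 0.419 CPM in the highest buccal library, and its log2 fold change of 0.68 ± 0.26 (SE) was at the edge of the threshold (edgeR adjusted p = 0.048). The call of Adamts18 held in 7 of 21 alternative settings, with an adjusted p of 0.041 to 0.877 across them.

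Of the 30 genes below the count filter 4 had 0 counts, and of the rest Adamts12, Adamts2 and Mmp19 alone were called by edgeR without a filter. That was a smaller share than the 19.4% of all 29221 genes called in the same fit. Between the sides 2 of the 30 did not overlap with palatal above and 0 with palatal below, against 28.3% in either direction of the genes past the filter. Adamts12, which cleaves the cartilage matrix protein COMP and is known from connective tissue cells, had 11, 13, 8, 9 and 13 counts in palatal libraries and 1, 2, 2, 3 and 4 counts in buccal libraries. Its relative Adamts7 had 10, 12, 8, 12 and 8 counts in palatal libraries and 7, 4, 5, 5 and 6 counts in buccal libraries. Neither overlapped between the sides on the CPM scale, and without a filter Adamts12 passed at 2.22 ± 0.47 log2 units (SE; edgeR adjusted p = 1.06e-04) while Adamts7 did not, at 0.98 ± 0.40 (edgeR adjusted p = 0.0793). Adamts9 (34 palatal and 14 buccal counts) overlapped between the sides and also missed the threshold, at 1.34 ± 0.51 log2 units (edgeR adjusted p = 0.0548). Adamts2, the procollagen N-proteinase, had 2, 7, 6, 4 and 7 counts in palatal libraries and 25, 7, 27, 11 and 19 counts in buccal libraries. Without a filter Adamts2 passed at -1.66 ± 0.38 log2 units (edgeR adjusted p = 2.94e-04), although the sides overlapped at 7 counts in palatal libraries 2 and 5 and in buccal library 2. Mmp19, which had 12 counts over the palatal and 49 over the buccal libraries, also passed without a filter at -1.91 ± 0.57 log2 units (edgeR adjusted p = 0.0114), with 22 of its counts in buccal library 2. Mmp19 shares 789 exon bases with Tmem198b and Adamts7 shares 122 with Tbc1d2b, both on the opposite strand, so reads there cannot be told apart without the strand setting of the counting. The other N-proteinases Adamts3 and Adamts14 had 14 and 10 counts over the palatal and 9 and 5 over the buccal libraries, and Adamts6, Adamts16 and Adamts19 had 13, 2 and 0 in palatal and 25, 1 and 2 in buccal libraries.

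Among the inhibitors Timp3 alone was called, and it was higher in palatal epithelium. Timp3 (ENSMUSG00000020044, chromosome 10) stays bound to matrix and inhibits ADAMTS and ADAM enzymes as well as MMPs. It had 7.62, 13.6, 12.4, 15.9 and 25.2 CPM in palatal libraries, against 7.82, 5.68, 7.67, 7.29 and 4.77 CPM in buccal libraries. Palatal library 1 lay within the buccal range and palatal library 5 far above the rest, while the other palatal libraries were all above the buccal ones. Timp3 rose by 1.17 ± 0.28 log2 units (SE, n = 5 per side; edgeR adjusted p = 0.00646), or 2.24-fold, and without palatal library 5 by 0.90 (adjusted p = 0.004). Timp1, which leukocytes and wounded tissue release, averaged 0.416 ± 0.125 CPM in palatal and 0.432 ± 0.187 CPM in buccal libraries (SD; log2 fold change -0.05 ± 0.31 SE, edgeR adjusted p = 0.921). The sign of Timp1 turned under several left-out libraries, to 0.23 without buccal library 3 at the most. Timp4, an inhibitor of restricted expression, had 1 count over the palatal and 0 over the buccal libraries.

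The Timp3 values are set beside markers of connective tissue. In bulk samples, fewer cells of a type and less RNA per cell cannot be told apart. Col1a1 had 0.629, 1.596, 1.10, 1.47 and 2.598 CPM in palatal libraries 1 to 5, so palatal library 1 was the lowest and palatal library 5 the highest for both Col1a1 and Timp3. In buccal libraries Col1a1 had 1.22, 2.13, 2.38, 2.18 and 1.44 CPM, and its log2 fold change was -0.34 ± 0.30 (SE; edgeR adjusted p = 0.405). Col3a1 showed the same end points in palatal libraries, at 0.331 CPM in library 1 and 2.24 CPM in library 5. Other fibroblast markers were ordered otherwise: Fbn1 (2.22 CPM) and Thy1 (28.0 CPM) were highest in palatal library 1. Dcn was nearly equal in palatal libraries 1 and 5 (68.6 and 68.4 CPM) and highest in palatal library 4 (83.5 CPM). On the buccal side Timp3 was highest in library 1 (7.82 CPM), where Col1a1 was lowest. Of 7 tested fibroblast markers 3 rose, Dcn, Fbn1 and Thy1, and 0 fell, beside 18.7% higher and 20.3% lower among all genes tested. The summed level of all 12 listed markers was 95.5 to 111.0 CPM in palatal and 23.5 to 31.0 CPM in buccal libraries, most of it Dcn and Thy1. Thy1 also stands in the T cell list, of whose 8 tested genes 7 fell and Thy1 alone rose. Of these, Cd2, Cd3g and Cd4 lay mostly or wholly under the filter's 0.334 CPM in palatal libraries, at 0.0797 to 0.254, 0.223 to 0.464 and 0.191 to 0.398 CPM. They passed the filter through the buccal side, and with a filter of 1 CPM in 5 libraries 3 genes of the list were called. The fibroblast receptor genes Pdgfra and Pdgfrb had 25 and 8 counts over the palatal and 36 and 7 over the buccal libraries, and Lum and Twist2 had 16 and 1 in palatal and 11 and 2 in buccal libraries. Their part in the Timp3 result was not tested. Timp3 shares 1733 exon bases with Syn3, a synapsin gene on the opposite strand in the GENCODE M21 annotation, and Syn3 had 18 counts over the palatal and 11 over the buccal libraries. Exon bases shared with another annotated gene occurred for 13 of the 46 genes, and Timp3 was the only called one of these.

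The wider protease and matrix network was read from lists of other genes, beside a background of 18.7% of all tested genes higher and 20.3% lower. Of 9 tested ADAM genes, the membrane-bound relatives of the ADAMTS enzymes, 2 rose and 4 fell. Adam19 fell by 2.04 log2 units and Adam8, known from leukocytes, fell by 1.14 (edgeR adjusted p = 9.52e-07 and 1.31e-06), whereas the sheddase genes Adam10 and Adam17 stood at 0.02 and -0.16 (edgeR adjusted p = 0.896 and 0.0876). Of 5 tested genes for ADAMTS-like proteins and papilin, which lack the protease domain, 3 rose and 0 fell. Thsd4, an ADAMTS-like gene that binds fibrillin, averaged 14.8 CPM in palatal and 4.57 CPM in buccal libraries, and Papln averaged 6.69 CPM in palatal and 3.14 CPM in buccal libraries. Of 4 tested genes in the astacin list, 3 rose and 0 fell, with Bmp1, the procollagen C-proteinase, at 50.7 CPM in palatal and 30.5 CPM in buccal libraries and its relative Tll1 higher by 2.25 log2 units (edgeR adjusted p = 2.75e-07). The palatal values of Tll1, 1.30 to 1.89 CPM, were enough for it to pass the filter, and its buccal values, 0.296 to 0.399 CPM, lay around the filter's 0.334 CPM.

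Genes that activate or restrain MMPs were read in the same way. Of 7 tested genes of the plasminogen system, which activates MMP precursors, 2 rose and 0 fell: Plau, or urokinase, by 0.40 and Serpinb2, its inhibitor, by 0.42 log2 units (edgeR adjusted p = 0.0107 and 8.44e-04). Of 13 tested genes among other activators, inhibitors and clearance receptors, 2 rose and 2 fell. Spock2, a testican proteoglycan gene, averaged 10.3 CPM in palatal and 0.554 CPM in buccal libraries (log2 fold change 4.19, edgeR adjusted p = 7.31e-11), and Cd44 rose by 0.38. Thbs2, a thrombospondin gene, fell by 0.76, and Pcsk5, a proprotein convertase gene, by 1.04 log2 units. The clearance receptor gene Lrp1 was not called, at 173 CPM in palatal and 157 CPM in buccal libraries (edgeR adjusted p = 0.214). The convertase Furin and the MMP inducer Bsg stood at -0.11 and 0.01 (edgeR adjusted p = 0.471 and 0.899), and the membrane inhibitor gene Reck had 33 counts over the palatal and 20 over the buccal libraries.

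**Figure D4:**
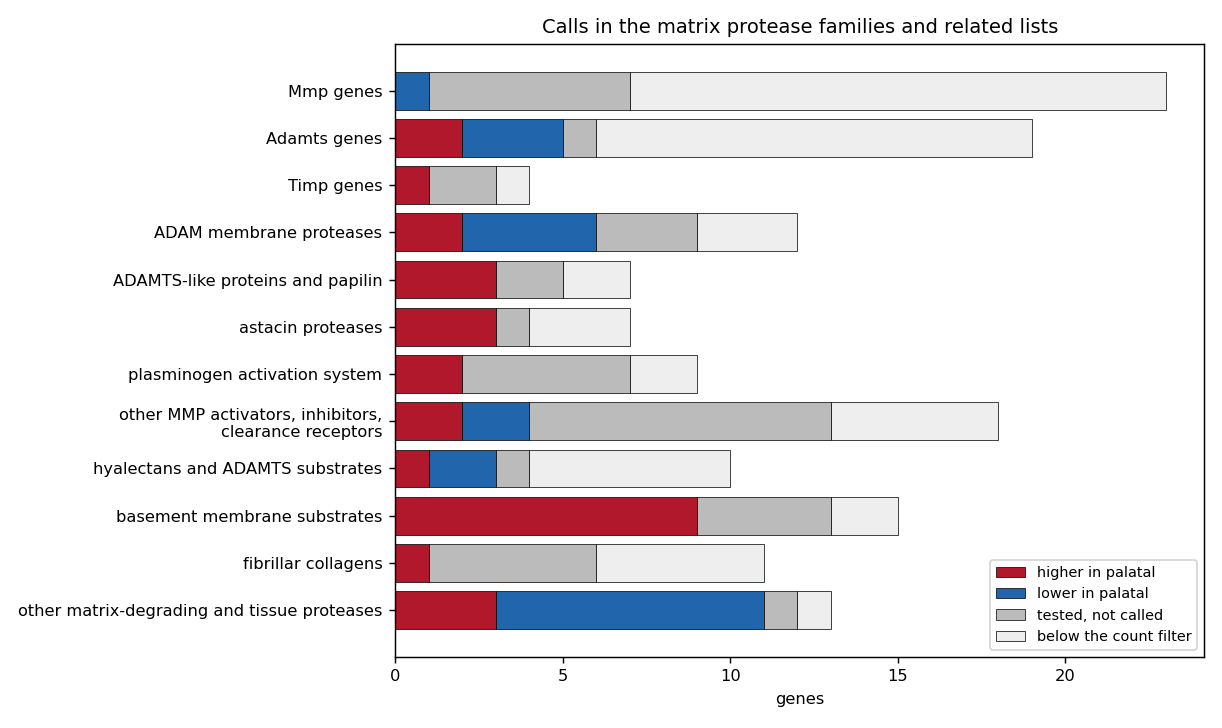
Number of genes in each protease family and in each related list that were called higher in palatal, called lower, tested without a call, or left out by the count filter. Of the 13 tested basement membrane genes 9 were higher and 0 lower, against 0 higher and 1 lower of 7 tested Mmp genes.

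Substrate genes were compared against the same background of 18.7% higher and 20.3% lower. Of 13 tested basement membrane genes 9 rose and 0 fell, with Col7a1, the collagen of anchoring fibrils, at 137 CPM in palatal and 65.6 CPM in buccal libraries and Col4a5 higher by 1.19 log2 units (edgeR adjusted p = 1.73e-07). Of 6 tested fibrillar collagen genes 1 rose, Col5a2, by 1.52 log2 units (edgeR adjusted p = 9.01e-09). Of 4 tested genes for ADAMTS substrates and their partners 1 rose and 2 fell. Vcan, which encodes versican, the substrate of Adamts1 and Adamts15, averaged 0.553 CPM in palatal and 0.203 CPM in buccal libraries and rose by 1.43 log2 units (edgeR adjusted p = 0.00902), while Fbln1, a fibulin known to bind ADAMTS1, fell by 0.48. The palatal values of Vcan, 0.397 to 0.757 CPM, all reached the filter's 0.334 CPM, while its buccal values ran from 0.0644 to 0.361 CPM. The side where Vcan was high was thus enough for it to pass the filter. Of 12 tested genes for cathepsins and glycan-degrading enzymes 3 rose and 8 fell, with the hyaluronan-degrading Cemip higher by 1.504 log2 units (edgeR adjusted p = 1.16e-06). The cathepsin genes Ctsh and Ctsz fell by 0.87 and 0.74 log2 units (edgeR adjusted p = 1.52e-06 and 7.99e-05). The cathepsin of antigen-presenting cells, Ctss, averaged 4.40 CPM in palatal and 13.2 CPM in buccal libraries. Of 9 tested macrophage and monocyte markers 7 fell and 1 rose, as given above, and the part of these cells in the Ctss values was not tested.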

How the data were processed

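The members and lists were chosen with earlier results of these data known. The series comprised 10 polyadenylated RNA libraries made with a stranded KAPA kit and read single-end on a NovaSeq, per the labels' protocols. Cutadapt 2.10 and the tools HTSeq 2.01, TopHat2 2.1.1 and DESeq2 1.36.0, with build GRCm39, are listed in the submitters' processing notes. No source used here states the strand setting of the counting, so reads of overlapping antisense genes cannot be told apart. The deposited table holds the authors' raw count per gene and, per the file headers, DESeq2-normalized values, a signal equal to each count over its library's size factor. Of 55414 genes, 6250 were blank and left out.

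Samples were grouped by the tissue label. Genes were kept by filterByExpr (minimum count 10), scaled by TMM and compared two-sided with edgeR (glmQLFit with robust estimation, glmQLFTest), adjusted by Benjamini-Hochberg (edgeR 4.0.16, limma 3.58.1, DESeq2 1.42.0, R 4.3.3). The standard error is the fold change over the square root of F. On simulated counts for this comparison (14112 genes tested), the test recovered 74.6% of 1.5-fold, 92.5% of 2-fold and 98.5% of 4-fold changes and made 11 false calls. The changed genes, 67, 67 and 66 per fold, all averaged at least 1 CPM and were far fewer than the 5474 genes called in the data. These rates therefore do not cover genes below 1 CPM, such as Adamts10, Adamts13, Adamts18, Mmp11, Mmp25 and Timp1. Exon lengths, neighbours and overlaps came from GENCODE M21 (GRCm38). All genes past the filter are named, the others by counts; of each list up to 4 genes with the smallest p were open to naming, and others named (such as Adam10, Adam17, Furin, Bsg, Reck, Ctss and the marker genes) were chosen after their values were seen. Role groups were drawn up after the values were seen. Alternatives were scaling by library totals, by upper quartile or by RLE, no filter, a filter of 1 CPM in 5 libraries, DESeq2, limma-voom, limma-trend on log2 of the deposited value plus 1, a replicate block, a false discovery rate of 0.01, a test against a 1.5-fold change, and left-out libraries.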

Additional observations from a re-analysis of the deposited data

How the results depend on the processing

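The called genes other than Adamts18 kept their call in all alternatives that tested them, except that Adamts1, Mmp2, Timp3 and Adamts15 did not pass against a fold of 1.5. Of 346 fold changes recomputed for the 16 genes, 325 kept their side of the threshold, 18 lost it and 3, all of Mmp25, gained it. With a filter of 1 CPM in 5 libraries 1 gene of the families was higher, because Adamts10 and Adamts18 were no longer tested. Against a fold of 1.5 the counts were 1 higher and 1 lower for the families, and 675 higher and 816 lower for all genes. Leaving out each library in turn gave 2 to 4 higher and 4 to 5 lower for the families, and 2348 to 2613 higher and 2516 to 2817 lower for all genes. Without a filter 3 were higher and 6 lower, with Adamts12, Adamts2 and Mmp19 added and Adamts18 lost, and 19.4% of 29221 genes were called (2823 higher, 2856 lower). Replicate numbers on the 2 sides share only a number: same-numbered libraries correlated at -0.02 to 0.33 in their deviations and 2 of 5 palatal libraries matched best with their own number. With a replicate block 2 were higher and 4 lower, Adamts18 dropping out (adjusted p = 0.0986), and no other call among the 16 genes changed. The 30 genes below the filter rest on few reads, so differences there were mostly not detectable at this depth.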
